A study of Mus musculus with 58 samples.

Results

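Microglia, the resident macrophages of the brain, take up, store and release iron. The 8 genes described here encode the core of that machinery: the ferritin chains Fth1 and Ftl1 that store iron, the exporter ferroportin (Slc40a1), the import routes transferrin receptor (Tfrc), Slc11a1, Slc11a2 and Slc39a14, and heme oxygenase 1 (Hmox1), which frees iron from heme. They were chosen as a family by gene symbol and matched to 8 of the 47643 Ensembl genes counted in 34 microglia libraries, in 8 groups and 4 comparisons. All 8 passed the filter on low counts in each of the 4 comparisons.

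The first comparison set 4 libraries of wild-type primary mouse microglia given 2 µg/ml full-length wild-type tau fibrils for 24 h (tau) against 4 given vehicle. The second set CD11b-selected microglia of 4 adult PS19 mice, which carry a human P301S tau transgene, against those of 4 non-transgenic (NTG) mice. All 8 mice were labelled male and were 10.98 months old, except 2 NTG mice of 11.18 months. The third set 5 libraries of primary microglia with constitutively active IKKβ, the kinase that activates NF-κB (IkbkbCA; Cx3cr1CreERT2/+; IkbkbCA F/F), against 5 without Cre (IkbkbWT; Cx3cr1+/+; IkbkbCA F/F). The last set 4 libraries of primary microglia with Ikbkb deleted (Ikbkb-/-; Cx3cr1CreERT2/+; Ikbkb F/F) against 4 without Cre (Ikbkb+/+; Cx3cr1+/+; Ikbkb F/F). All groups of these last comparisons received 4-hydroxytamoxifen in culture, and the Cre is carried by an allele that replaces 1 copy of Cx3cr1, so neither control group carries that knock-in allele. Primary cultures came from pups, and the labels do not say whether replicates were separate cultures, so a p-value measures the spread between these libraries only.

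Ferritin is a shell built of heavy chains, which oxidise incoming iron, and light chains, which help to mineralise it. Iron regulatory proteins bind hairpins called iron-responsive elements in messenger RNAs: when cell iron is low, binding in the 5′ UTR blocks translation of ferritin and ferroportin, and binding in the 3′ UTR protects the Tfrc message from decay. Ferritin heavy chain, Hmox1 and several transporters are also known to respond to inflammatory and oxidative stress signals at the level of transcription. The libraries measured messenger RNA, so translation through these elements was not measured.

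The elements are shown because matches to a fixed search pattern divide the family by a feature that gene counts do not use. A search of GENCODE M21 transcripts (GRCm38) for a bulged C, 5 bases of stem, the loop CAGTGN with any base but G last and a stem of 5 pairs, G-U pairs allowed, found them in the UTRs of 4 of the 8 genes, against 123 of 21901 protein-coding genes (0.562%). Each is given 5′ to 3′ in the sense of the message, with the bulged C and the loop in capitals.
Fth1 5′ UTR, chr19:9982730-9982759, plus strand, exon 1: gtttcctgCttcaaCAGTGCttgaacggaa
Ftl1 5′ UTR, chr7:45459780-45459809, minus strand, exon 1: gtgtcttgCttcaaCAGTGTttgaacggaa
Slc40a1 5′ UTR, chr1:45925466-45925495, minus strand, exon 1: tccaacttCagctaCAGTGTtagctaagtt
Tfrc 3′ UTR, chr16:32631217-32631246, plus strand, exon 19: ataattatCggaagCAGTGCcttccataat
Tfrc 3′ UTR, chr16:32631596-32631625, plus strand, exon 19: cacattatCgggagCAGTGTcttccataat
Tfrc 3′ UTR, chr16:32631661-32631690, plus strand, exon 19: gtctatatCggagaCAGTGAtctccatatg
Tfrc 3′ UTR, chr16:32631708-32631737, plus strand, exon 19: gtaattatCgggaaCAGTGTttcccataat
The ferritin elements were identical at 27 of 30 bases, and the 4 in Tfrc lay within 521 bases. This pattern had no match in the UTRs of Hmox1, Slc11a1, Slc11a2 or Slc39a14, which says only that these letters were not there. Elements of another form were not searched for, so these genes cannot be said to lack an iron-responsive element.

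RefSeq promoter windows on GRCm38, 250 bases before to 50 after a start site, were given for Fth1, Ftl1, Tfrc and Slc11a1, 4 of the 8 genes. Searched on both strands, the NF-κB site consensus had a match in the Ftl1 window alone, against 5.14% of 27025 genes with a window. It is shown because the third and last comparisons act on NF-κB, with the matched letters in capitals.
Ftl1 promoter, chr7:45459884-45459909, minus strand: tcgggcctGGGGCACCCCtccctccg
A match is a description of the letters and not a sign of binding.

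Levels are in CPM, counts relative to the library's total, scaled within each experiment. Total gene counts were 1672052 to 8349128 per library. All 7 microglia markers were detected in every group, with a summed level of 3422 to 10107 CPM in the cultures and 19241 to 32464 CPM in the adult cells. Ikbkb, the targeted gene, was at 18.7 to 25.4 CPM in Ikbkb-/- and 45.9 to 55.0 CPM in Ikbkb+/+ libraries (log2 fold change -1.20 ± 0.12 SE, edgeR quasi-likelihood FDR = 6.3e-07). In the active-IKKβ pair it overlapped, at 45.0 to 59.8 CPM in IkbkbCA and 41.2 to 58.6 CPM in IkbkbWT libraries, and these counts do not distinguish a transgene from the native gene. The paper reports higher Ikbkb in such IkbkbCA cultures by RT-qPCR. IkbkbCA replicate 3 stood apart from its group in several of the 8 genes. In that comparison the results for Fth1, Slc40a1, Slc11a1, Slc11a2, Hmox1 and the ferritin ratio are therefore also given without it. Differences of effects were not refitted without it, and results for the wider gene lists are given with it only. The male-expressed Y-linked gene Ddx3y was at 156 to 178 CPM in Ikbkb-/- and 34.9 to 70.8 CPM in Ikbkb+/+ libraries, with the female-expressed Xist at 5.69 to 10.7 and 248 to 399 CPM. The sex makeup of the last comparison therefore moved with genotype and cannot be told apart from it within its 8 libraries. IkbkbWT replicates 1 to 3 had Xist at 1.73 to 2.76 CPM, replicates 4 and 5 at 473 and 494 CPM, and the 5 IkbkbCA libraries at 149 to 277 CPM. PS19 replicate 1, labelled male, had Xist at 161 CPM. PS19 replicate 2 had 28.7 CPM and replicates 3 and 4 had 3.93 and 1.67 CPM, against 25.6 to 29.1 CPM in NTG libraries.

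**Figure D1:**
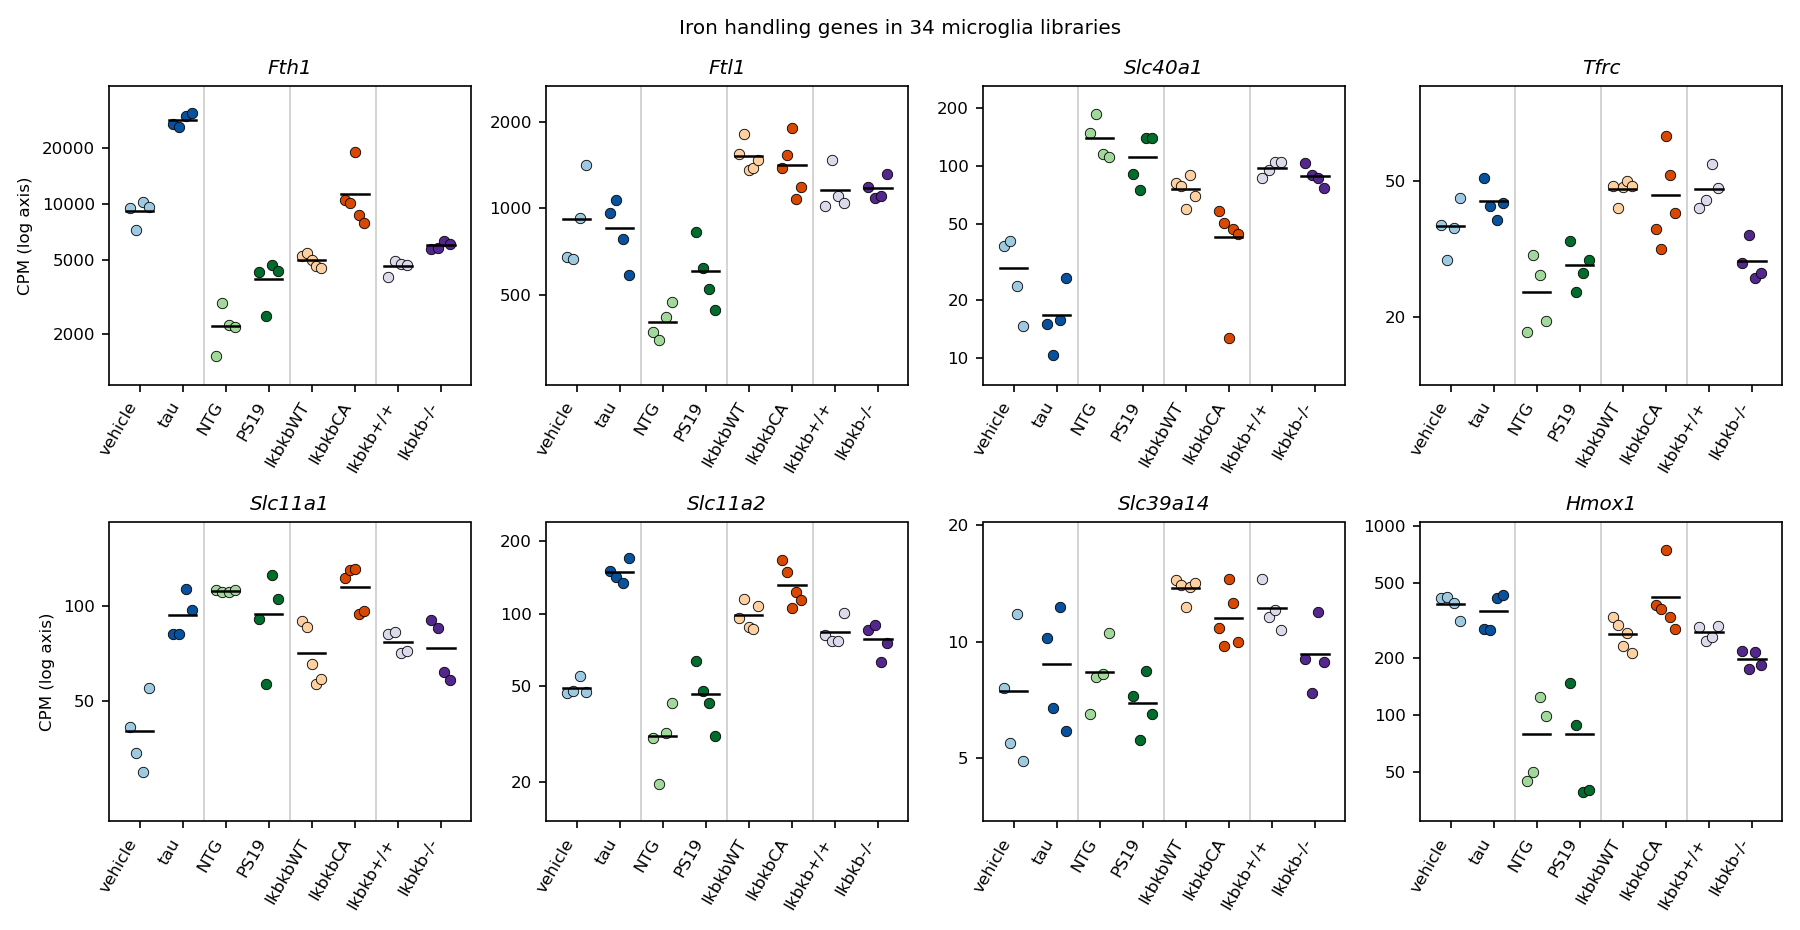
Level of each of the 8 genes in all 34 libraries, in CPM on a log axis. Each point is 1 library in replicate order, bars are group means, and vertical lines part the 4 experiments. Fth1 was higher in all tau than in all vehicle libraries, and IkbkbCA replicate 3 stood apart for Fth1 at 19017 CPM and for Slc40a1 at 12.7 CPM.

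Fth1, the ferritin heavy chain (chr19:9980598-9985098, plus strand), was the most abundant of the 8 genes and was higher with tau fibrils, with active IKKβ and, by less, with Ikbkb deleted. Vehicle libraries held 9456, 7255, 10147 and 9584 CPM of Fth1. Tau libraries held 26802, 25661, 29550.1 and 30596 CPM. All tau libraries were above all vehicle libraries, and Fth1 alone rose from 0.77%-1.04% to 2.45%-2.86% of all gene counts. The log2 fold change was 1.63 ± 0.14 (SE), or 3.09-fold, with FDR = 6.7e-10 by edgeR's quasi-likelihood test.

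With active IKKβ, IkbkbWT libraries held 5223, 5411, 4983, 4613 and 4539 CPM of Fth1. IkbkbCA libraries held 10483, 10026, 19017, 8739.7 and 7864 CPM. The groups did not overlap, and replicate 3 was far above the other 4. On the log2 scale the change was 1.18 ± 0.21 (edgeR FDR = 0.0029), and it was 0.93 with FDR = 2.3e-04 without replicate 3.

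Ikbkb+/+ libraries held 4055, 4899, 4743 and 4705 CPM, and Ikbkb-/- libraries 5722, 5783, 6306 and 6054 CPM. Here too the groups did not overlap, although the change was small, at 0.37 ± 0.09 (edgeR FDR = 0.0058). It was 0.37 with FDR = 0.30 in a joint fit of the 18 libraries of the third and last comparisons, and 0.34 with FDR = 0.41 with Ddx3y as a covariate. Active IKKβ and loss of Ikbkb thus both went with higher Fth1, and their effects differed by 0.82 ± 0.26, which did not pass the test (edgeR FDR = 0.097).

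In adult cells, NTG libraries held 1520.0, 2920.3, 2219.7 and 2185 CPM of Fth1. PS19 libraries held 4295, 2506, 4689.8 and 4329.8 CPM. PS19 replicate 2 lay inside the NTG range and the other 3 above it. The log2 fold change was 0.84 ± 0.25 with an unadjusted p = 0.0056 and an edgeR FDR of 0.36, so it did not pass. In one fit of all 34 libraries, which shares the spread estimate with the cultures, it was 0.87 with FDR = 0.014. The tau and PS19 effects differed by 0.71 ± 0.29 (edgeR FDR = 0.15). By group mean, Fth1 ran from tau at 28152 CPM through IkbkbCA at 11226, vehicle at 9111, Ikbkb-/- at 5966, IkbkbWT at 4954, Ikbkb+/+ at 4601 and PS19 at 3955 to NTG at 2211 CPM. These CPM were scaled within each experiment, so the order across experiments is not on a common scale. Neighbours from different experiments were not tested, and IkbkbCA and vehicle, IkbkbWT and Ikbkb+/+, and Ikbkb+/+ and PS19 overlapped.

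Ftl1, the ferritin light chain (chr7:45457944-45459884, minus strand), did not pass the test in any of the 4 comparisons. Its vehicle libraries held 679, 668, 925 and 1409 CPM and its tau libraries 965, 1072, 784 and 586 CPM. The groups overlapped, with a log2 fold change of -0.11 and a 95% interval of -0.48 to 0.26. IkbkbWT libraries held 1546, 1814, 1357, 1383 and 1470.0 CPM and IkbkbCA libraries 1376, 1531, 1898, 1079.9 and 1189.5 CPM, a log2 fold change of -0.10 (interval -0.39 to 0.19). In Ikbkb-/- against Ikbkb+/+ it was 0.02 (interval -0.20 to 0.23). NTG libraries held 373, 349, 419 and 475 CPM and PS19 libraries 830.0, 621, 528 and 444 CPM. Of the 4 PS19 libraries 3 were above all NTG libraries, and the log2 fold change of 0.58 ± 0.22 had an unadjusted p = 0.019 and an edgeR FDR of 0.47.

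The counts of both chains within a library give a ratio that does not depend on how libraries are scaled. In vehicle libraries there were 13.9, 10.9, 11.0 and 6.80 Fth1 counts per Ftl1 count, and in tau libraries 27.8, 23.9, 37.7 and 52.2. Every tau library was above every vehicle library, by 3.28-fold on average (log2 difference 1.71, exact two-sided permutation p = 0.029, adjusted p = 0.038 over the 4 comparisons). In IkbkbWT libraries the ratio was 3.38, 2.98, 3.67, 3.34 and 3.09, and in IkbkbCA libraries 7.62, 6.55, 10.0, 8.09 and 6.61. These groups did not overlap either, at 2.34-fold (log2 difference 1.23, exact permutation p = 0.0079, adjusted p = 0.032), and the log2 difference was 1.13 without IkbkbCA replicate 3. Ikbkb+/+ libraries had 3.98, 3.33, 4.30 and 4.50 and Ikbkb-/- libraries 4.81, 5.33, 5.70 and 4.60, a small separation of 1.27-fold (exact permutation p = 0.029, adjusted p = 0.038). NTG libraries had 4.07, 8.36, 5.30 and 4.60 and PS19 libraries 5.17, 4.03, 8.89 and 9.76, which overlapped (exact permutation p = 0.49). With 4 libraries against 4 the smallest p is 0.029, and with 5 against 5 it is 0.0079. Each ratio also holds how well each message is captured, so its height is no ratio of molecules, and both ferritin genes have near-identical pseudogenes. The 10 heavy-chain pseudogenes held 212 counts in all, 0.0191% of the Fth1 counts, and the 3 light-chain ones 80 counts, 0.0488% of the Ftl1 counts. Alignments that were not unique, 52.5% to 56.2% of alignments per library, were not assigned to any gene.

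**Figure D2:**
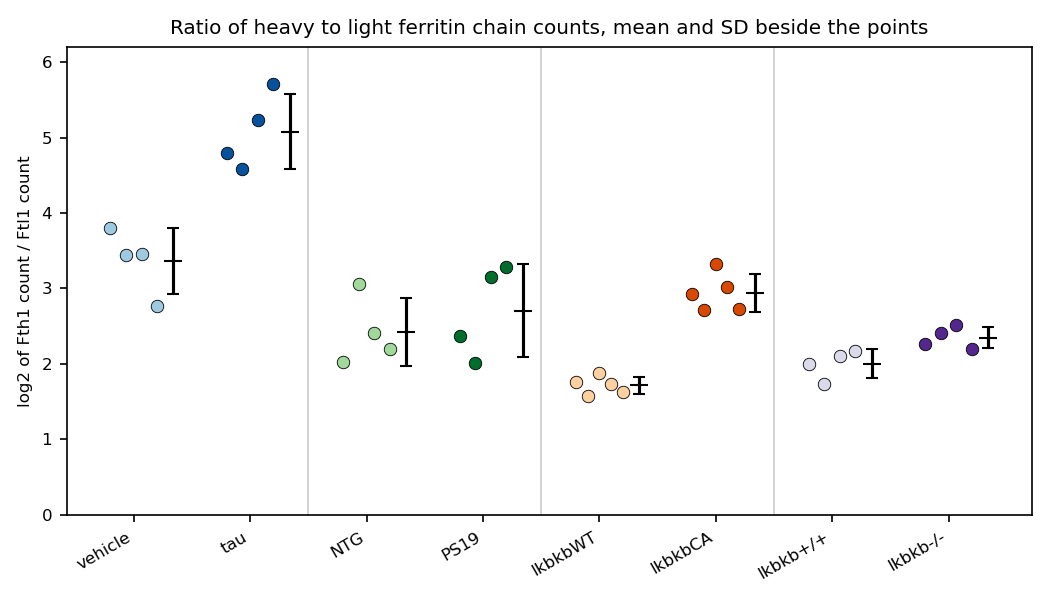
Ratio of Fth1 to Ftl1 counts in each library, as log2 on a linear axis from 0, with the group mean and SD (n = 4 or 5) beside the points. The tau libraries lie above the vehicle libraries and the IkbkbCA above the IkbkbWT libraries without overlap, and PS19 and NTG overlap.

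Slc40a1, which encodes ferroportin, the known iron exporter of mammalian cells (chr1:45908068-45926523, minus strand), was lower with tau fibrils and lower in all IkbkbCA than in all IkbkbWT libraries. Vehicle libraries held 38.5, 40.6, 23.6 and 14.7 CPM and tau libraries 15.0, 10.4, 15.9 and 26.2 CPM. The ranges overlapped, since vehicle replicate 4 lay among the tau libraries and tau replicate 4 among the vehicle libraries. The log2 fold change of -0.84 ± 0.29 passed (edgeR FDR = 0.027), and the call was lost in 5 of 8 fits that left out 1 library: without tau replicates 1, 2 or 3 or vehicle replicates 1 or 2 (FDR = 0.072, 0.10, 0.078, 0.084 and 0.16).

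IkbkbWT libraries held 82.1, 79.1, 60.2, 90.3 and 69.9 CPM of Slc40a1, and IkbkbCA libraries 58.8, 50.8, 12.7, 47.1 and 44.3 CPM. All 5 IkbkbCA libraries were below all 5 IkbkbWT libraries, with replicate 3 the lowest. The log2 fold change of -0.84 ± 0.30 did not pass (edgeR FDR = 0.086). Without IkbkbCA replicate 3 it was smaller, -0.58, and passed (FDR = 0.013). Non-overlap was found in 12.7% of the genes tested in that comparison. Ikbkb-/- libraries (77.1 to 103 CPM) overlapped Ikbkb+/+ libraries (86.9 to 105 CPM), and PS19 libraries (75.0 to 141 CPM) overlapped NTG libraries (112 to 187 CPM), with log2 fold changes of -0.16 and -0.33 that did not pass (edgeR FDR = 0.32 and 0.74).

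Of the import genes, Slc11a2 and Slc11a1 were higher with tau fibrils, and Tfrc was lower with Ikbkb deleted. Slc11a2, or DMT1, carries ferrous iron across the membrane and out of endosomes (chr15:100387898-100425072, minus strand). Vehicle libraries held 46.6, 47.6, 55.3 and 47.5 CPM and tau libraries 149.6, 141, 134 and 170.3 CPM. The ranges were far apart, and the log2 fold change was 1.59 ± 0.14, or 3.02-fold (edgeR FDR = 7.3e-10). IkbkbWT libraries held 96.2, 115, 88.1, 86.4 and 108 CPM and IkbkbCA libraries 167, 149, 105, 123 and 114 CPM. These ranges overlapped, and the log2 fold change of 0.42 ± 0.14 did not pass (edgeR FDR = 0.062), while without IkbkbCA replicate 3 it was 0.51 and passed (FDR = 0.026). The tau effect was larger than the IkbkbCA effect by 1.10 ± 0.20 (edgeR FDR = 0.0010). Exons of Slc11a2 share 402 bases with the opposite-strand gene Gm5475, which had 288 counts against 12984 for Slc11a2.

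PS19 libraries held 63.6, 47.6, 42.5 and 31.1 CPM of Slc11a2 and NTG libraries 30.6, 19.7, 31.9 and 42.8 CPM. The ranges overlapped, and the log2 fold change of 0.57 ± 0.27 did not pass (edgeR FDR = 0.59). In Ikbkb-/- against Ikbkb+/+ libraries it was -0.11 ± 0.12 (edgeR FDR = 0.61).

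Slc11a1, or NRAMP1, is the phagosomal relative of Slc11a2, known in macrophages for moving metal ions out of phagosomes that hold microbes (chr1:74375195-74386062, plus strand). Vehicle libraries held 41.4, 34.3, 29.8 and 55.1 CPM and tau libraries 81.7, 81.2, 113 and 97.2 CPM. All tau libraries were above all vehicle libraries, with a log2 fold change of 1.24 ± 0.18 (edgeR FDR = 5.2e-06). IkbkbWT libraries held 89.3, 85.8, 65.4, 56.4 and 58.8 CPM and IkbkbCA libraries 122, 130.0, 131, 94.0 and 96.1 CPM. Again no libraries overlapped, with a log2 fold change of 0.69 ± 0.15 (edgeR FDR = 0.011), which was 0.66 without IkbkbCA replicate 3 (FDR = 0.028).

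In adult cells Slc11a1 was at 112, 110.3, 111 and 112 CPM in NTG libraries, with an SD of 0.949 CPM, and PS19 libraries held 91.0, 56.7, 125 and 105 CPM. PS19 libraries lay on both sides of the NTG libraries, and the log2 fold change of -0.23 ± 0.22 did not pass (edgeR FDR = 0.81). The tau effect was larger than the PS19 effect by 1.38 ± 0.30 (edgeR FDR = 0.0050). Ikbkb-/- libraries, at 58.3 to 89.8 CPM, overlapped Ikbkb+/+ libraries, at 70.9 to 82.3 CPM, with a log2 fold change of -0.07 ± 0.13 (edgeR FDR = 0.77).

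Tfrc, the receptor that takes up transferrin-bound iron (chr16:32608920-32632794, plus strand), moved past the threshold in the Ikbkb-deleted comparison alone of the 4. Ikbkb+/+ libraries held 41.8, 44.2, 56.4 and 47.9 CPM and Ikbkb-/- libraries 28.8, 34.8, 26.02 and 26.9 CPM. All Ikbkb-/- libraries were below all Ikbkb+/+ libraries, with a log2 fold change of -0.72 ± 0.12, 0.608 times the control level (edgeR FDR = 5.3e-04). It was -0.71 in one fit of 18 libraries (FDR = 0.022) and -0.69 with Ddx3y as a covariate (FDR = 0.049). IkbkbWT libraries held 41.9 to 50.0 CPM and IkbkbCA libraries 31.6 to 68.0 CPM, with the highest in replicate 3. There the log2 fold change was -0.05 ± 0.18 (edgeR FDR = 0.90), and the effects of active and deleted IKKβ on Tfrc differed by 0.68 ± 0.24, which did not pass (FDR = 0.17). In tau against vehicle it was 0.26 ± 0.18 (edgeR FDR = 0.32), and in PS19 against NTG 0.25 ± 0.23 (edgeR FDR = 0.80).

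Slc39a14, or ZIP14, a zinc transporter family member that also carries iron not bound to transferrin (chr14:70303469-70351425, minus strand), was the least abundant of the 8, at 4.91 to 14.5 CPM. It did not pass in any of the 4 comparisons. Tau libraries held 10.2, 6.76, 12.3 and 5.87 CPM against 7.58, 5.49, 11.8 and 4.91 CPM with vehicle, with 9 to 31 counts a library. The log2 fold change of 0.27 had an interval of -0.44 to 0.99 (edgeR FDR = 0.62). In Ikbkb-/- against Ikbkb+/+ it was -0.37 ± 0.19 (edgeR FDR = 0.22), and in IkbkbCA against IkbkbWT -0.25 ± 0.14 (edgeR FDR = 0.28). In PS19 against NTG it was -0.26 ± 0.31 (edgeR FDR = 0.85).

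Hmox1, which opens the heme ring and releases its iron (chr8:75093621-75100589, plus strand), was lower with Ikbkb deleted. Ikbkb+/+ libraries held 293, 247, 259 and 295 CPM and Ikbkb-/- libraries 218, 175, 216 and 184 CPM. The groups did not overlap, with a log2 fold change of -0.47 ± 0.09 (edgeR FDR = 0.0016). It was of like size in one fit of 18 libraries, -0.47 with FDR = 0.26, and -0.52 with FDR = 0.25 with Ddx3y as a covariate, fits that share the spread of the active-IKKβ libraries. IkbkbWT libraries held 329, 299, 231, 272 and 213 CPM and IkbkbCA libraries 381, 362, 742, 330.4 and 284 CPM. Of the 5 IkbkbCA libraries 4 were above all IkbkbWT libraries and replicate 3 far above the rest. The log2 fold change of 0.64 ± 0.24 did not pass (edgeR FDR = 0.098), and it was 0.36 without replicate 3 (FDR = 0.14).

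The effects of active and deleted IKKβ on Hmox1 differed by 1.13 ± 0.30, which passed (edgeR FDR = 0.045). This difference was not refitted without IkbkbCA replicate 3, and limma-voom did not call it. The deleted pair is also the one in which sex makeup moved with genotype. Hmox1 held 418, 418, 389 and 316 CPM with vehicle and 287, 282, 417 and 431 CPM with tau. The tau libraries fell on both sides of the vehicle libraries, and the log2 fold change of -0.12 ± 0.15 did not pass (edgeR FDR = 0.58). PS19 libraries held 149, 88.9, 39.5 and 40.5 CPM and NTG libraries 45.2, 50.5, 126 and 98.9 CPM, a log2 fold change of -0.02 ± 0.43 (edgeR FDR = 0.99).

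**Figure D3:**
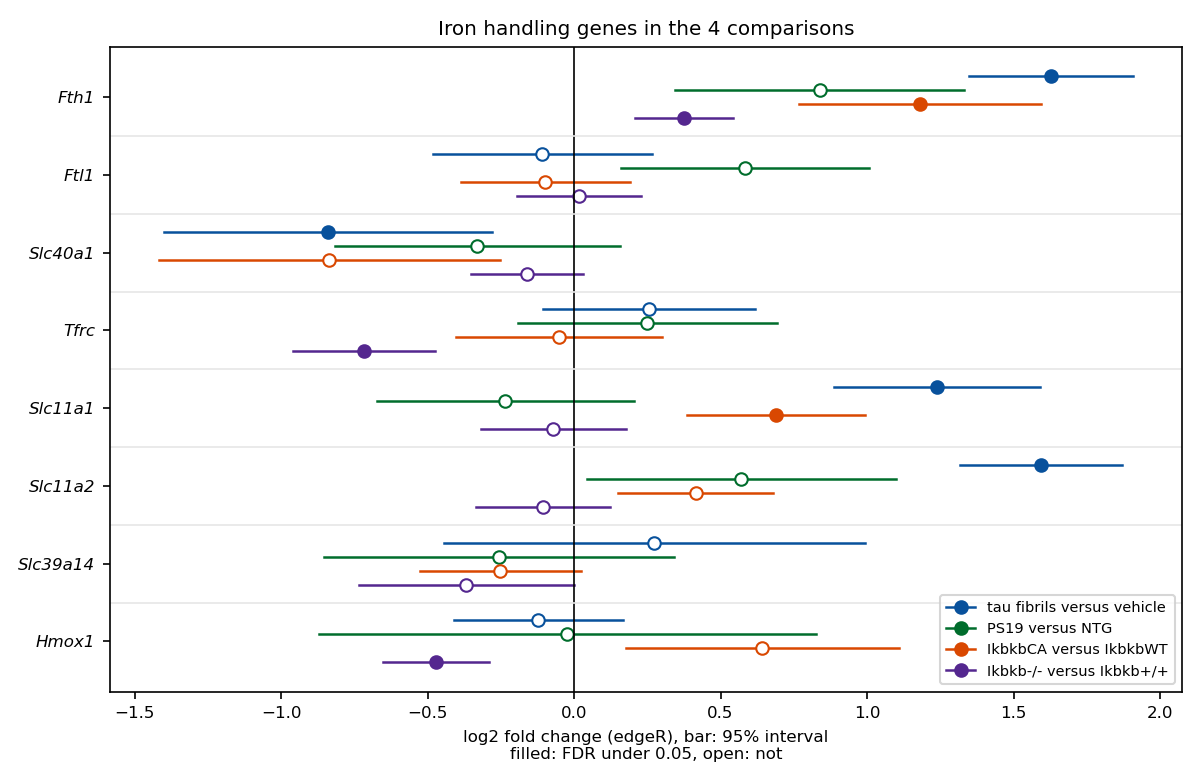
Log2 fold change of each gene in the 4 comparisons with its 95% interval, filled where the edgeR FDR was under 0.05. Fth1 lies above 0 in all 4 comparisons, at 1.63, 0.84, 1.18 and 0.37, and Ftl1 is open in all 4.

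Counted over the family, 3 of 8 genes rose and 1 fell with tau fibrils, where 14.5% of 10408 genes tested rose and 15.4% fell. With active IKKβ 2 rose and 0 fell, at backgrounds of 7.31% and 7.16% of 11697 genes. With Ikbkb deleted 1 rose and 2 fell, at backgrounds of 7.64% and 6.96% of 11242 genes. In PS19 against NTG 0 of 8 passed, where 0.0707% of 11323 genes rose and 0% fell by edgeR, 977 genes had an unadjusted p under 0.05, and neither DESeq2 nor limma-voom called any of the 8. The median log2 fold change of the 8 was 0.27, 0.11, 0.18 and -0.13 in the tau, PS19, active-IKKβ and Ikbkb-deleted comparisons, against -0.01, 0.00, -0.05 and 0.00 over all genes tested. Groups did not overlap for 28.3%, 5.77%, 12.7% and 18.1% of all genes tested in these comparisons. Of the effects tested against each other, 1 of 8 genes differed between active and deleted IKKβ (background 3.12%), 1 between tau and active IKKβ (9.42%) and 1 between tau and PS19 (8.07%). The tau libraries and their vehicle controls enter both of the last contrasts.

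The 4 genes with a match to the searched iron-responsive element pattern did not move alike. With tau fibrils Fth1 rose by 1.63, Ftl1 was at -0.11, Slc40a1 fell by 0.84 and Tfrc was at 0.26 on the log2 scale. Of the 4 without a match, Slc11a1 and Slc11a2 rose with tau fibrils, and Hmox1 and Slc39a14 did not pass.

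Other genes of iron and heme handling, 54 in a list set by function, were measured beside the family. With tau fibrils 11 of the 36 tested rose and 5 fell, where 14.5% and 15.4% of all genes tested did, so the share that fell was near the background. The 4 highest were Lcn2, which binds bacterial iron carriers (log2 fold change 2.13 ± 0.25), the ferroxidase Cp (1.68 ± 0.25), Hfe, a partner of the transferrin receptor (1.44 ± 0.22), and the biliverdin reductase Blvrb (1.27 ± 0.14). The 4 lowest were the metalloreductase Steap2 (-1.41 ± 0.40), the mitochondrial transporter Abcb10 (-0.81 ± 0.26), Lrp1, a receptor for hemopexin-bound heme (-0.67 ± 0.14), and Slc22a17, a receptor for Lcn2 (-0.63 ± 0.15). Steap2 was near the floor, with 5 to 8 counts a library with tau and 12 to 39 with vehicle. By role, 4 of 11 heme genes rose and 1 fell, 3 of 9 regulators rose and 0 fell, and 1 of 7 import genes rose and 3 fell.

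With active IKKβ 4 of the 40 tested rose and 5 fell, beside 7.31% and 7.16% of all genes tested. Cp was again high, at 79.9 to 192 CPM in IkbkbCA and 17.8 to 82.5 CPM in IkbkbWT libraries (1.78 ± 0.38), followed by the mitochondrial iron importer Slc25a37 (1.30 ± 0.19) and Nfe2l2, which encodes the oxidative stress factor Nrf2 (0.76 ± 0.10). The lowest were Slc39a8, a metal importer closely related to Slc39a14 (-1.47 ± 0.17), Lrp1 (-0.69 ± 0.09), transferrin (Trf, -0.66 ± 0.13) and Hfe (-0.65 ± 0.17). Hfe was at 27.2 to 38.9 CPM in tau and 10.4 to 13.4 CPM in vehicle libraries, and at 21.7 to 32.4 CPM in IkbkbCA and 25.6 to 50.6 CPM in IkbkbWT libraries.

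With Ikbkb deleted 2 of the 40 rose and 8 fell, beside 7.64% and 6.96% of all genes tested. The heme oxygenase Hmox2 (0.49 ± 0.09) and Keap1, the partner that holds Nrf2 in check (0.39 ± 0.10), rose. Slc39a8 (-0.79 ± 0.18), Cp (-0.70 ± 0.18) and Alas1, the first enzyme of heme synthesis (-0.67 ± 0.14), were the lowest of the list. In PS19 against NTG 0 of 40 passed by edgeR, beside 0.0707% and 0%. Median log2 fold changes of the tested genes were 0.23, -0.08, -0.11 and -0.12 in the tau, PS19, active-IKKβ and Ikbkb-deleted comparisons.

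Of 10 known Nrf2 targets other than the family, 3 of 8 tested rose with tau fibrils, led by the cystine transporter Slc7a11 (1.17 ± 0.41), and 0 fell, beside 14.5% and 15.4% of all genes tested. With active IKKβ 1 of 9 rose, Sqstm1 (0.50 ± 0.13), and 0 fell, beside 7.31% and 7.16%. With Ikbkb deleted 1 of 8 rose, Osgin1 (0.87 ± 0.18), and 2 fell, Txnrd1 (-0.57 ± 0.10) and Gclm (-0.41 ± 0.11), beside 7.64% and 6.96%. In PS19 against NTG 0 of 9 passed, beside 0.0707% and 0%.

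**Figure D4:**
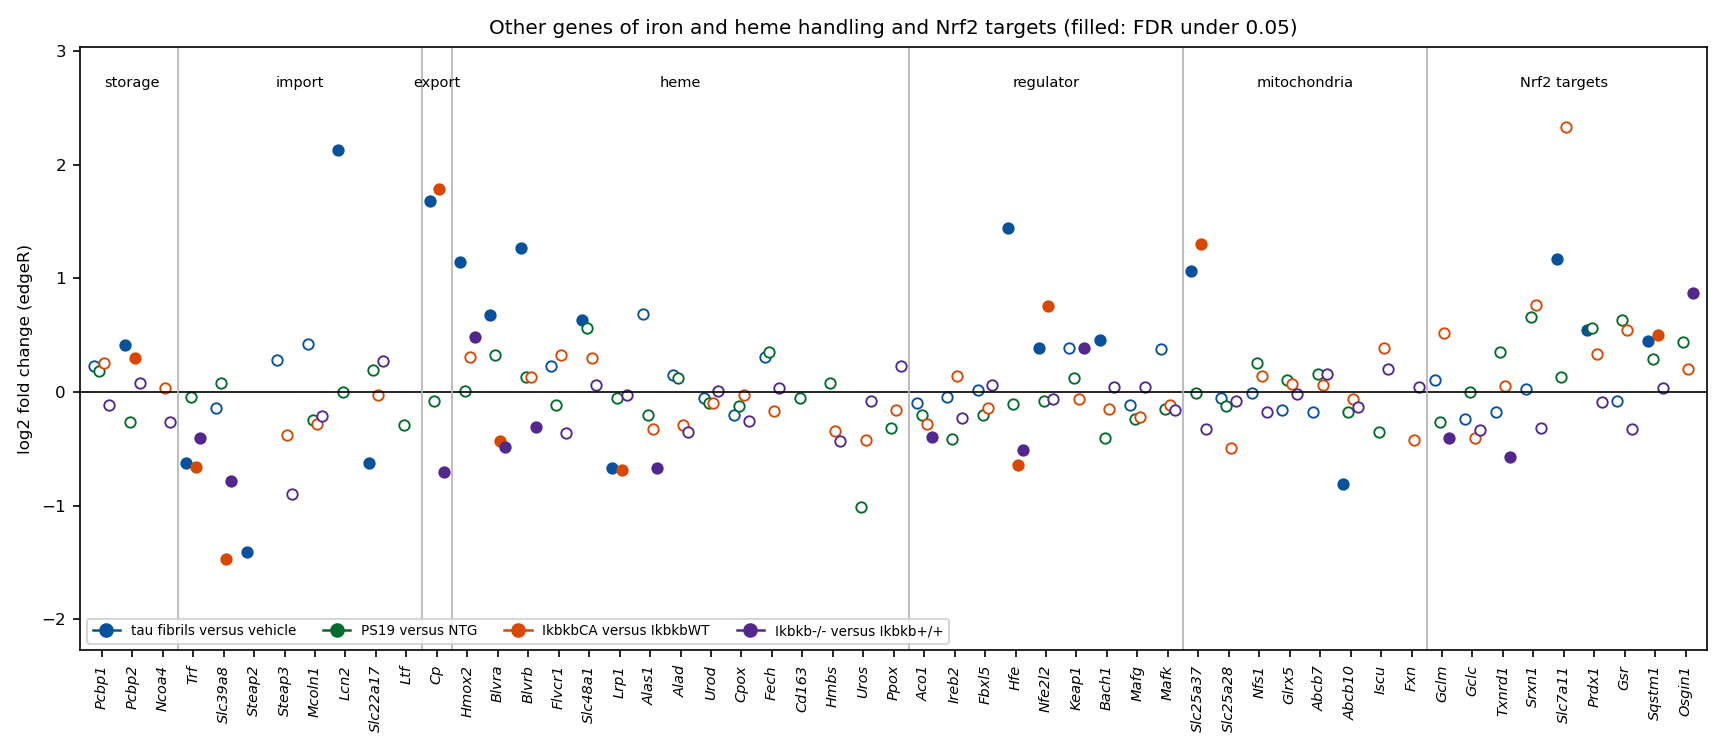
Log2 fold change of the other iron and heme genes and of the Nrf2 targets, by role, in the 4 comparisons, filled where the edgeR FDR was under 0.05. Cp is filled above 0 for tau fibrils (1.68) and active IKKβ (1.78) and below 0 for Ikbkb deleted (-0.70).

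Markers of other cells moved with some groups. In these bulk libraries, fewer cells of a type and less RNA per cell cannot be told apart. The sum of 6 astrocyte markers was 703 to 754 CPM with vehicle and 378 to 446 CPM with tau, and the 7 microglia markers summed to 3422 to 4031 and 6623 to 7853 CPM. Fth1, Slc11a1 and Slc11a2 rose in the same libraries, and the part of cell makeup in those results was not tested. The sum of 6 border macrophage markers was 1418 to 1983 CPM in IkbkbWT and 485 to 1026 CPM in IkbkbCA, and 1541 to 1832 CPM in Ikbkb+/+ and 424 to 746 CPM in Ikbkb-/- libraries. It was lower in both Cre genotypes, in which Fth1 was higher, and its part in the results for Fth1, Tfrc and Hmox1 was not tested. With active IKKβ Mrc1, Lyve1, F13a1 and Cbr2 fell, and Pf4 did not pass (log2 fold change -0.02, edgeR FDR = 0.98). With Ikbkb deleted Mrc1, Lyve1, F13a1, Cbr2 and Pf4 all fell. Cd163 did not pass the filter on low counts in either comparison. The sum of 6 granulocyte markers was 1487 to 2056 CPM in NTG and 387 to 2344 CPM in PS19 libraries. It was 16.99 to 85.1 CPM in IkbkbCA and 6.73 to 12.2 CPM in IkbkbWT libraries, without overlap. There S100a8 rose (log2 fold change 2.52, edgeR FDR = 0.0038) and S100a9 did not (0.04, FDR = 0.96). The other granulocyte markers did not pass the filter on low counts in that comparison. The sum was 8.20 to 12.6 CPM in Ikbkb-/- and 7.67 to 414 CPM in Ikbkb+/+ libraries. With Ikbkb deleted S100a8 (log2 fold change -3.60, edgeR FDR = 0.010) and S100a9 (-3.66, FDR = 0.0090) fell. The border macrophage sum was 119 to 127 CPM with tau and 65.3 to 100.4 CPM with vehicle. There Pf4 rose (log2 fold change 0.56, edgeR FDR = 0.0067), and Mrc1 did not pass (0.32, FDR = 0.42). Lyve1, Cd163, F13a1 and Cbr2 did not pass the filter on low counts in that comparison. The part of granulocytes and border macrophages in the results for the 8 genes was not tested. With tau the summed neuron markers (70.9 to 81.7 CPM, against 135 to 168 CPM with vehicle) and endothelial markers (49.3 to 58.2 against 99.3 to 122 CPM) were also lower. The endothelial fall was in Flt1 (mean 49.2 CPM with tau against 105 CPM with vehicle). Pecam1 was higher with tau, at a mean of 4.57 against 0.273 CPM, and Cldn5 had no counts in either group. With Ikbkb deleted the summed oligodendrocyte markers (454 to 532 against 227 to 339 CPM) and endothelial markers (164 to 216 against 63.6 to 117 CPM) were higher. That endothelial rise was in Flt1 alone (mean 189 CPM in Ikbkb-/- against 85.8 CPM in Ikbkb+/+). Pecam1 fell (log2 fold change -2.01, edgeR FDR = 0.0026), and Cldn5 and Cdh5 had lower means. The oligodendrocyte sum reached 4969 CPM in 1 IkbkbWT library, and the fibroblast sum was at most 35.0 CPM in any library. The share of reads in no annotated gene was 16.3% to 22.2% with tau and 23.3% to 29.1% with vehicle, and 12.4% to 13.99% in IkbkbCA and 15.9% to 18.7% in IkbkbWT libraries, and its part in these results was not tested. Hemoglobin genes and other red cell markers, 7 in all, were at most 34.6 CPM in any library, and at most 0.902 CPM with tau or vehicle.

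Likeness was measured as Pearson's r of log2 CPM centred on each experiment's mean, over 34 libraries and 10109 genes, as a description, since libraries of one treatment share their deviation. The genes most like Fth1 were Ell2 (r = 0.94), Tspo (0.91) and Sh3bgrl3 (0.90). Those most like Slc11a1 were M6pr (0.91), Cd14 (0.90) and Psmb9 (0.86), and those most like Slc11a2 were P2rx4 (0.89), Itpripl2 (0.86) and Blnk (0.85). Slc40a1 was most like Bmpr2 (0.77), Snn (0.76) and Gpr34 (0.75), and Hmox1 most like Tagln2 (0.77), Plxnd1 (0.76) and Fam129b (0.73). Tfrc was most like the border macrophage marker Pf4 (0.75), then Fignl1 (0.73) and Ifi27 (0.72). Ftl1 was most like Romo1 (0.79), Atp6v0b and Napa (both 0.75), and Slc39a14, with the weakest likeness of the 8, most like Rrp1b (0.69), Idh3g (0.63) and Dock1 (0.61). Fth1 and Ftl1 themselves had r = 0.17, and Fth1 and Slc40a1 had r = -0.60.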

How the data were processed

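The 34 microglia libraries were 3′ end (QuantSeq) RNA-seq libraries from RNA of high integrity, so counts do not grow with transcript length. The authors mapped them to GRCm38 on the BlueBee platform with the Lexogen QuantSeq 2.2.3 pipeline and deposited whole-number counts per Ensembl gene; the counting setting for strand is not given in the sources used here. The 24 cortex samples were not analysed here. Genes were named from GENCODE M21, and 5 lines per file that name no gene were left out. Total gene counts of 1672052 to 8349128 per library set the precision of the levels. Each comparison was fitted on its own libraries with edgeR 4.0.16 (TMM scaling, filterByExpr with a minimum count of 10 and a total of 15, quasi-likelihood F test, Benjamini-Hochberg over all genes tested, FDR under 0.05, SE taken as the absolute log2 fold change over the square root of F). Differences of effects were contrasts in fits of 4 groups. CPM are TMM-scaled within each experiment. Ferritin ratios were tested by exact two-sided permutation. Alternatives were RLE and total-count scaling, dropping the filter, a floor of 10 counts per library, DESeq2 1.42.0, limma-voom 3.58.1, one fit of all 34 libraries, age as a covariate for PS19 and leaving out each library. The Ddx3y covariate and the fit of 18 libraries were chosen after seeing the data. The fits were tested on simulated data.

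Named genes were all 8 family members, the up to 4 highest and 4 lowest called genes of the 2 other lists combined, and the 3 genes most like each member (prior count 2, mean CPM of at least 5). Slc7a11 with tau fibrils, Gclm with Ikbkb deleted and single cell type markers were named besides these. The family, the lists of other genes and the 9 lists of cell type markers were chosen with earlier results of these data known. The heavy-chain pseudogene count includes Fth-ps2. Promoter windows on chromosome 18 were left out of the background.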

Additional observations from a re-analysis of the deposited data

Results flagged for a closer look

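Of 72 sets of values examined (8 genes and the ferritin ratio in 8 groups), 5 held a library far from the others of its group, where chance alone flags about 5% of sets. Fth1 was 19017 CPM and Hmox1 742 CPM in IkbkbCA replicate 3, both the highest of the group. Tfrc was 41.9 CPM in IkbkbWT replicate 2, the lowest of its group, Slc39a14 was 12.3 CPM in IkbkbWT replicate 3, also the lowest, and Slc11a2 was 55.3 CPM in vehicle replicate 3, the highest.

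Of 24 differences of effects tested, 3 passed. The Hmox1 effect was larger with active than with deleted IKKβ by 1.13 on the log2 scale, the Slc11a2 effect was larger with tau fibrils than with active IKKβ by 1.10, and the Slc11a1 effect was larger with tau fibrils than in PS19 mice by 1.38. The pairs compared came from different experiments, so age, culture and experiment cannot be told apart from the treatments in these differences. The Hmox1 and Slc11a2 differences were not refitted without IkbkbCA replicate 3.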

How the results depend on the processing

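When each library was left out in turn, the number of the 8 genes called was 3 to 4 with tau fibrils, 0 in PS19, 3 with Ikbkb deleted and 2 to 4 with active IKKβ, the 4 without IkbkbCA replicate 3. Under the other settings it stayed within 1.5 times, with these exceptions. DESeq2 called 5 with active IKKβ, adding Slc40a1, Hmox1 and Slc11a2. One fit of all 34 libraries called 1 in PS19 (Fth1) and 1 with Ikbkb deleted (Tfrc), and the fits of 18 libraries, chosen after seeing the data, called 1 with Ikbkb deleted with and without Ddx3y as a covariate. By limma-voom 0 genes differed between active and deleted IKKβ.

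The log2 ferritin ratio difference ran from 1.504 to 1.88 with tau fibrils, 0.09 to 0.51 in PS19, 1.13 to 1.28 with active IKKβ and 0.26 to 0.41 with Ikbkb deleted when a library was left out. In the last it missed the threshold in 4 of 8 cases (exact permutation p = 0.057).

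Signs turned only for results that were not called and whose log2 value in the main fit was near 0, from -0.1089 to 0.0169. Leaving out a library took some of them further from 0 on the other side. With total-count scaling Hmox1 in PS19 was 0.011 and Ftl1 with Ikbkb deleted -0.0137, and with no filter they were 0.0068 and -0.0025. Ftl1 was -0.0223 with Ddx3y in the fit of 18 libraries, and the Slc40a1 difference between tau and active IKKβ was 0.0172 by limma-voom. When each library was left out in turn, Ftl1 ran from -0.2367 to 0.1733 with tau fibrils and from -0.0496 to 0.1453 with Ikbkb deleted, Slc11a1 from -0.172 to 0.027 with Ikbkb deleted, Hmox1 from -0.5273 to 0.2938 in PS19, and Tfrc from -0.214 to 0.0555 with active IKKβ. The cause of these changes was not tested. No paired analysis was possible because the labels number no replicates: the numbers used here only follow the order of the samples and pair none.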
